A study of Homo sapiens with 3 samples.

Results

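The genes examined here encode the machinery that imports proteins into mitochondria. They were chosen by symbol from the deposited table, as the genes named TOMM or TIMM with a number, TIMMDC1, and PAM16, DNAJC19, GRPEL1, GRPEL2, PMPCA, PMPCB, CHCHD4, SAMM50, MTX1, MTX2 and OXA1L, with pseudogenes left out. This gave 37 of the 58735 genes in the table. The libraries came from H660, a human neuroendocrine prostate cancer cell line, in its parental form, treated for 24 h with the solvent DMSO, with 2.5 µM JG231 or with 5 µM JG231. JG231 is an allosteric inhibitor of HSP70, the chaperone family whose members deliver precursor proteins to mitochondria and, in the matrix, pull them in. The libraries address which transcripts differ when HSP70 is inhibited in this line. Each condition had 1 library, and the table has a single column for it, although the study speaks of repeated experiments for its data in general. Whether a column pools cultures is not given in the sources used here. With 1 library per condition, no standard deviation and no p-value could be given and every value compares 1 library with another.

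Nearly all mitochondrial proteins are made in the cytosol and cross the outer membrane through the TOM complex. From there, beta-barrel proteins go to the SAM complex of the outer membrane, small cysteine-rich proteins are oxidised by a relay in the intermembrane space, carrier proteins are guided by the small TIM chaperones to the TIM22 complex, and precursors with an N-terminal presequence pass through the TIM23 complex and are drawn into the matrix by the presequence translocase-associated motor (PAM), after which the matrix processing peptidase (MPP) removes the presequence. In mammalian cells, impaired import is known to activate stress-responsive transcription factors.

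The values are FPKM, the fragments of a gene per kilobase of its merged exons scaled to the mapped fragments of the library, as the authors computed them. Steps in the values gave 16.1 M fragments in the DMSO library, 20.4 M at 2.5 µM and 24.1 M at 5 µM. Transcripts of the mitochondrial genome made up 39.8% of all FPKM in DMSO, 24.1% at 2.5 µM and 28.8% at 5 µM, and the deposited values are not rescaled for this share. The neuroendocrine markers SYP and ENO2 were between 13.0 and 37.0 FPKM in the 3 libraries, CHGA was at 46.0 in DMSO, 15.0 at 2.5 µM and 12.7 at 5 µM, NCAM1 was at 6.16, 4.82 and 3.40, and KLK3, a marker of prostate adenocarcinoma, was at or under 0.134 FPKM, although the sample record gives the cell type as an adenocarcinoma. Changes are log2((FPKM + 0.1)/(FPKM in DMSO + 0.1)), a scale that understates the change of low genes. A gene was counted as higher or lower where its change was more than 0.25 and its FPKM passed 1 in at least 1 of the compared libraries, a reading of the filter in the study's methods, which also keeps genes that go from or to 0. In bulk RNA, fewer cells of a kind and less RNA per cell cannot be told apart.

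In the values as deposited, transcripts of most import genes were more abundant in both JG231 libraries. At 5 µM, 27 of the 34 import genes that passed the filter were higher than in DMSO and 2 were lower, with a median change of 0.54. At 2.5 µM, 26 of 35 were higher and 4 lower, with a median of 0.56. After rescaling to a common sum without mitochondrial and small RNA genes, 16 of 35 were higher and 6 lower at 5 µM, with a median of 0.14. Among all genes, 22.9% were higher and 60.1% lower in that setting. The 6 lower include TOMM5, which passed the filter there only through its DMSO value and therefore had to come out lower. As deposited, TOMM7, TIMM44, TIMM9, TIMM23 and GRPEL2 were higher by over 1 on the log2 scale at both doses, while TOMM40L and TIMM10B were lower at both.

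These counts stood beside a wide change across all genes. At 5 µM, 36.5% of 15765 genes past the filter were higher and 45.1% lower, with a median of -0.11. At 2.5 µM, 36.4% of 15746 genes were higher and 43.4% lower, with a median of -0.08. A change of over 1 upward was reached by 9 import genes at 5 µM, where 14.7% of all genes reached it, and by 9 at 2.5 µM, against 12.9%, and no import gene past the filter was lower by over 1, against 24.3% and 21.7% of all genes. Among the 9 at 2.5 µM was TOMM20L, which passed the filter only through its value at that dose and therefore had to differ. The DMSO library is shared by the comparisons at either dose. At both doses, 24 of 34 import genes were higher and 2 lower, while 27.9% and 38.6% of 15164 genes were, and 5 import genes were higher by over 1 at both, against 8.24% of all genes. Among well-expressed protein-coding genes, those with a mean of at least 5 FPKM, the medians were 0.22 at 5 µM and 0.21 at 2.5 µM, nearer to the import genes than the medians of all genes. Of 7583 genes of every type at that level, 41.9% were higher at both doses. At 5 µM 48.8% of them were higher, with 25 of 29 import genes, and at 2.5 µM 48.0%, with 23 of 29.

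**Figure D1:**
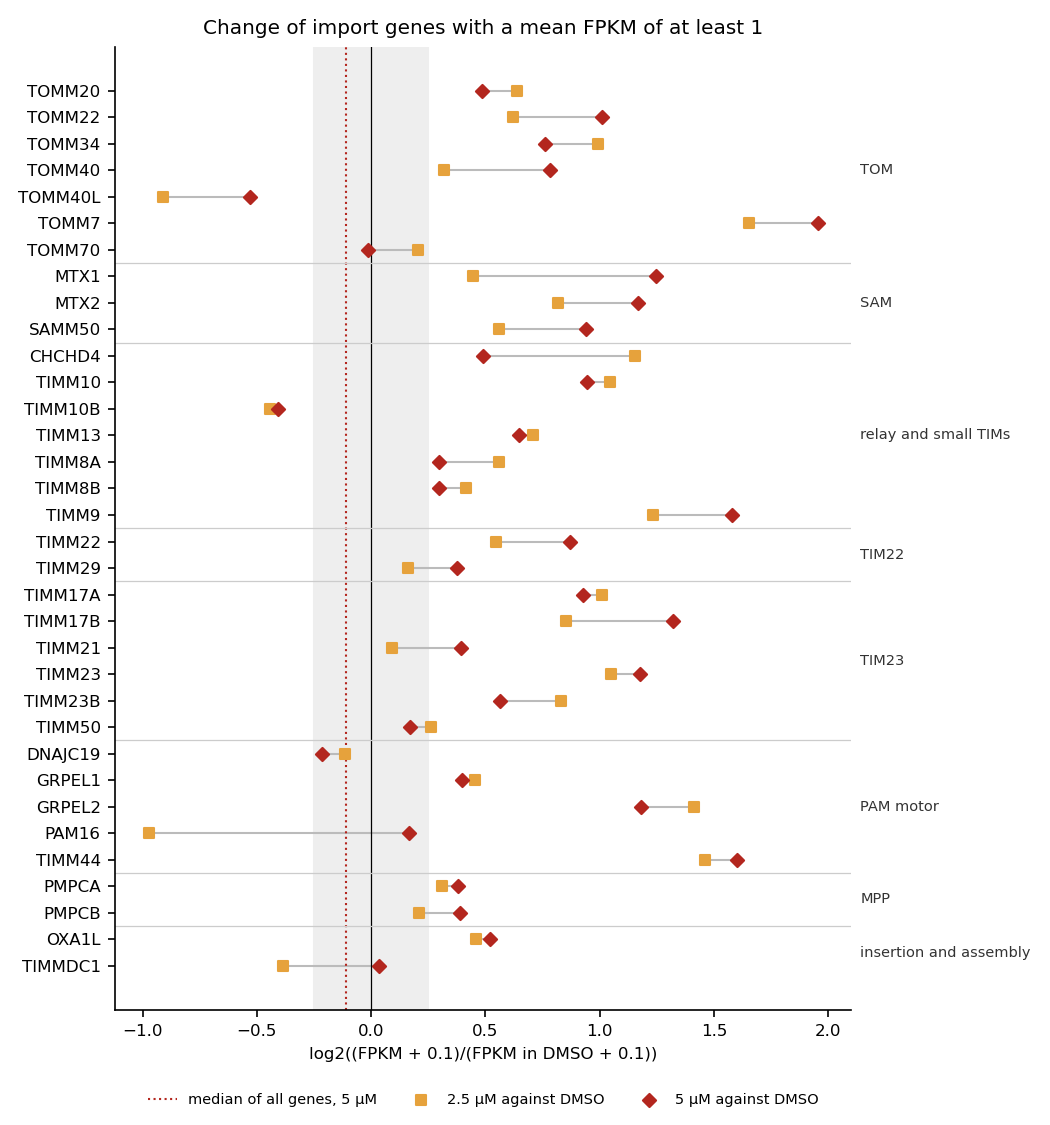
Changes of the 34 import genes with a mean of at least 1 FPKM, grouped by role. The horizontal axis is the log2 change against DMSO, squares are the 2.5 µM library, diamonds the 5 µM library, the grey band marks changes within 0.25 and the dotted line the median of all genes at 5 µM. Most symbols lie right of the band, and TOMM40L and TIMM10B lie left of it at both doses.

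No condition was measured again, so the spread of a gene was taken from the robust SD of the log2 difference between the JG231 libraries over the 500 genes closest to it in mean FPKM. It ranged from 0.21 to 0.64 for the 34 import genes with a mean of at least 1 FPKM, with a median of 0.27, and it is not an error between replicates. Changes larger than 2 spreads upward were seen in 18 of these 34 genes at 5 µM, against 21.5% of 13785 genes, and in 15 at 2.5 µM, against 19.9%. No import gene was lower by more than 2 spreads at either dose, while 17.6% of all genes were at 5 µM and 14.9% at 2.5 µM.

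The start regions of 4 import genes are shown here because motifs in them were counted. They belong to the 3 import genes with the largest positive changes at 5 µM and to those with the largest negative changes, among genes with a mean of at least 5 FPKM and the same sign at both doses. Only DNAJC19 met the rule on the negative side, with changes within 0.25, while TOMM40L and TIMM10B, which were lower, have means under 5 FPKM. Each runs from 250 bases before to 50 after the start of the gene in RefSeq, build GRCh38.p14, 5′ to 3′ on the gene's own strand, which is the minus strand for all of them. Capitals mark the NRF1 core motif, GCGCATGC, read on the opposite strand. The regions are chr7:22822800-22823099 for TOMM7, chr19:7943617-7943916 for TIMM44, chr14:58427482-58427781 for TIMM9 and chr3:180989725-180990024 for DNAJC19.
TOMM7: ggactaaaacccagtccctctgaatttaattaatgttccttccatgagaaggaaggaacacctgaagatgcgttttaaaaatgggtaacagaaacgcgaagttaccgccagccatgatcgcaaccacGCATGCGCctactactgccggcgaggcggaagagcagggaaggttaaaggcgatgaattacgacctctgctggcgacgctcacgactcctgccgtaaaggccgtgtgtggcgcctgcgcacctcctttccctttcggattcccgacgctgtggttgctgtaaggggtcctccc
TIMM44: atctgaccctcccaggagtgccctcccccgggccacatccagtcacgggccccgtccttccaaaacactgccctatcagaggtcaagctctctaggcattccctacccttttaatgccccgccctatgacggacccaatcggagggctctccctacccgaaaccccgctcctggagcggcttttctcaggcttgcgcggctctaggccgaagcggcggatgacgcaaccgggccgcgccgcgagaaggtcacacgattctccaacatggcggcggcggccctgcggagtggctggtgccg
TIMM9: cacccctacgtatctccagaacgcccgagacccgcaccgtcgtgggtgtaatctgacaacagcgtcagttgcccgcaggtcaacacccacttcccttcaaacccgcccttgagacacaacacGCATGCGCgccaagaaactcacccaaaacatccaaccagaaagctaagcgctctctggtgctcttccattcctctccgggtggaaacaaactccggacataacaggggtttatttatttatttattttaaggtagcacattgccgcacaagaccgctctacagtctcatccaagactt
DNAJC19: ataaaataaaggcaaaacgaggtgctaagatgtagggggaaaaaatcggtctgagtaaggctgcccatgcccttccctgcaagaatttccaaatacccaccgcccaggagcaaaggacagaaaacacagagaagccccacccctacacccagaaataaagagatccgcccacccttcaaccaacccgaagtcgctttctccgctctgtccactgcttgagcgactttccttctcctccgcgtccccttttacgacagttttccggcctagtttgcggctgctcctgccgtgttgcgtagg

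Start regions were found for 34 of the 37 import genes, and 5 motifs were searched on both strands. The NRF1 core, bound by a regulator of nuclear genes for mitochondrial proteins, was present in 5 of the 34 (14.7%), in CHCHD4, PAM16, TIMM10B, TIMM9 and TOMM7, compared with 3.27% of 27305 start regions of the same length and 5.74% of the 9861 belonging to genes past the filter at 5 µM. Its position relative to the start was -123 in TOMM7 and -128 in TIMM9. Of the 5 genes holding it, CHCHD4, TOMM7 and TIMM9 were higher at both doses, TIMM10B was lower at both and PAM16 was lower at 2.5 µM.
The ETS motif CCGGAAGT was in 9 of the 34 (26.5%), against 4.44% of all start regions and 9.04% of those past the filter. The E-box CACGTG was in 3 (8.82%, against 7.43% and 10.3%), namely TIMM10, TIMM8A and TOMM20, the C/EBP-ATF motif TGATGNAA in PMPCB and TIMM22 (5.88%, against 3.67% and 1.52%), and the YY1 motif GATGGCGG in PMPCA and TIMM50 (5.88%, against 2.44% and 4.79%). The start regions of TIMM44 and DNAJC19 held none of the 5 motifs. A match describes these letters in this window and is not evidence of binding.

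The TOM complex is the entry gate of the outer membrane. Here and in what follows, levels are given in the order DMSO, 2.5 µM and 5 µM, and changes against DMSO in the order 2.5 µM and 5 µM. TOMM20, the receptor for presequences, had the highest level of all import genes in every library, with 75.6 FPKM in DMSO, 118 at 2.5 µM and 106 at 5 µM, log2 changes of 0.64 and 0.48. TOMM22, the central receptor that also holds the complex together, had 11.3, 17.4 and 22.8 FPKM, changes of 0.62 and 1.01. TOMM40, the channel itself, had 14.8, 18.5 and 25.5 FPKM, changes of 0.32 and 0.78. For TOMM22 and TOMM40 the 5 µM library was the highest of the 3, and for TOMM20 the 2.5 µM library was.
TOMM7, a small subunit that tunes the stability of the complex, showed the largest change among import genes with a mean of at least 1 FPKM. TOMM7 (ENSG00000196683) had 7.56 FPKM in DMSO, 24.02 at 2.5 µM and 29.6 at 5 µM, from about 211, 848 and 1233 fragments, and log2 changes of 1.65 and 1.95, where the spread was 0.27. The 95% interval of the change at 5 µM was 1.75 to 2.18 by exact binomial (Clopper-Pearson) limits on the fragments. Such intervals cover counting error only, because fragments amplified by PCR are not independent molecules.
The receptor for carrier proteins behaved otherwise. TOMM70, which docks cytosolic HSP70 and HSP90 with their cargo, had 18.3, 21.0 and 18.1 FPKM, changes of 0.20 and -0.02, both within 0.25. After rescaling without mitochondrial and small RNA genes its changes were -0.09 and -0.39. TOMM34, a cytosolic cochaperone that binds HSP70 and HSP90 and is not a part of the membrane complex, had 16.5, 32.8 and 27.9 FPKM, changes of 0.99 and 0.76. TOMM40L (ENSG00000158882), a paralog of the channel, was lower in both JG231 libraries, with 3.40, 1.76 and 2.33 FPKM from about 180, 118 and 184 fragments, and changes of -0.91 and -0.53 with a spread of 0.64. Its fragments at 5 µM were as many as in DMSO in a deeper library.
The other 3 members of this group were at or near 0. TOMM5, a small subunit, had 0.989, 0.471 and 0.182 FPKM from about 58, 35 and 16 fragments and passed the filter in no comparison of the values as deposited. With libraries rescaled to a common sum, TOMM5 passed through its DMSO value alone. TOMM20L, a paralog of TOMM20, was listed at 0 in DMSO and at 5 µM and had 1.82 FPKM from about 23 fragments at 2.5 µM, at least 6.05-fold higher than in DMSO when 3 fragments per library are taken as the floor. Its exons overlap those of TIMM9 on the opposite strand over 28.6% of their length, and no source used here says whether strand was used in counting. The same doubt touches 7 import genes with a mean of at least 1 FPKM and at least 10% of their exon length overlapped on the opposite strand, namely TIMM8B (30.1%), TIMMDC1 (29.4%), TIMM9 (26.6%), MTX1 (21.9%), TOMM40L (20.1%), TIMM13 (20.1%) and TIMM17B (15.5%).
TOMM6, another small subunit, was listed at 0 in all 3 libraries. In GENCODE release 44 all of its exon length is shared with another gene on the same strand (ENSG00000124593). Of 451 protein-coding genes with at least 90% of their exon length shared in this way, 79.8% were listed at 0 in all libraries, compared with 22.0% of 17839 genes with under 10% shared, and the part of this overlap in the value of TOMM6 was not tested.

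**Figure D2:**
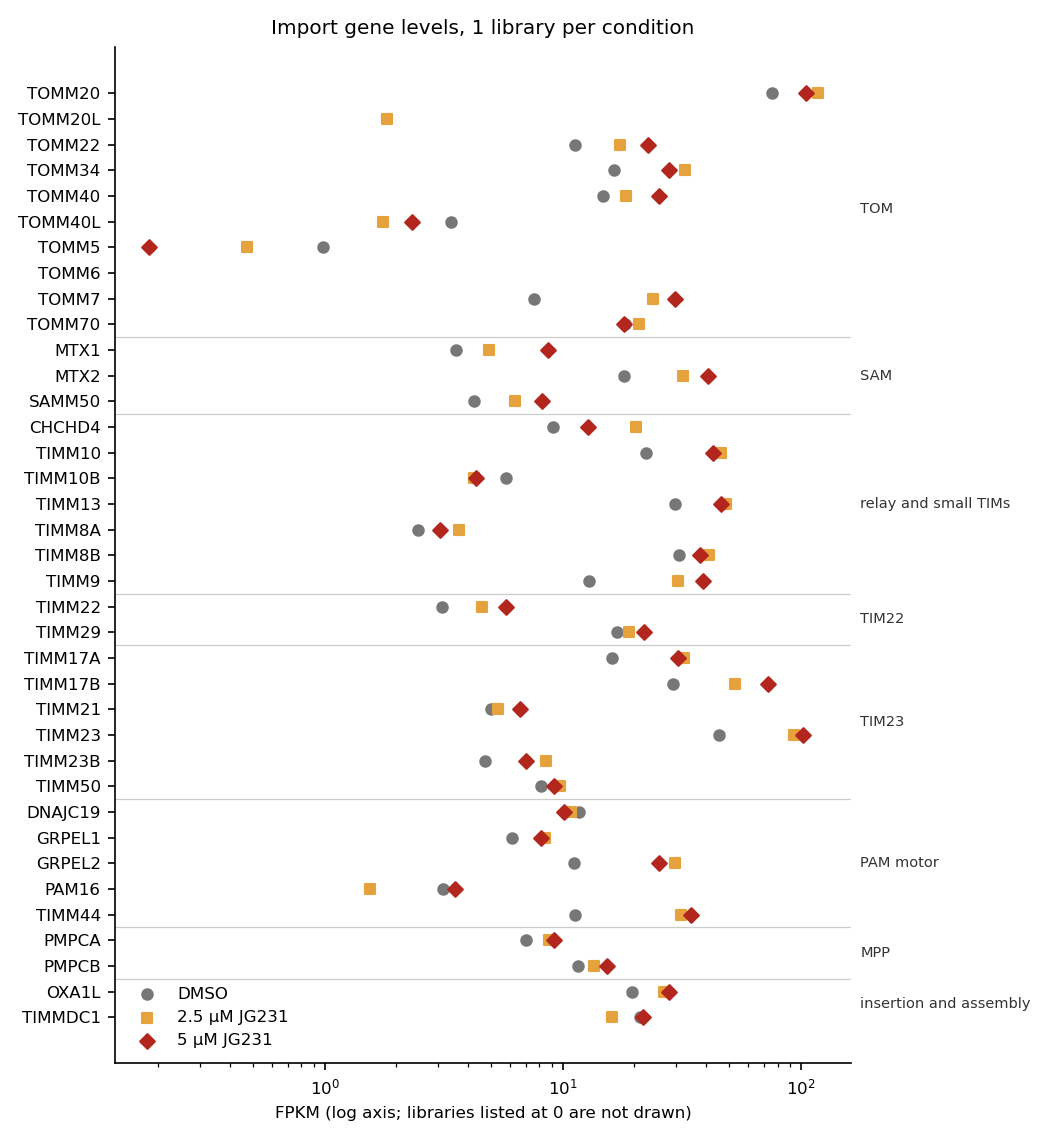
FPKM of the import genes in each library, on a log axis, grouped by role, with circles for DMSO, squares for 2.5 µM and diamonds for 5 µM JG231, and with values of 0 not drawn. TOMM20 and TIMM23 are the highest in all 3 libraries, and TOMM7, TIMM44 and TIMM9 show the widest gaps between DMSO and 5 µM, apart from the low TOMM5.

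All 3 SAM genes, whose products insert beta-barrel proteins into the outer membrane, were higher at both doses and more so at 5 µM. Of all genes 27.9% were higher at both, and of those with a mean of at least 5 FPKM 41.9%. SAMM50, the core of the complex, had 4.23 FPKM in DMSO, 6.29 at 2.5 µM and 8.20 at 5 µM, changes of 0.56 and 0.94. MTX2, a peripheral subunit, had 18.1, 32.0 and 40.9 FPKM, changes of 0.82 and 1.17. Its partner MTX1 had 3.58, 4.91 and 8.65 FPKM, changes of 0.44 and 1.25.
MTX1 has an annotated pseudogene copy, MTX1P1, that moved the other way, with 10.5, 2.52 and 2.03 FPKM from about 141, 43 and 41 fragments. With the fragments of both copies summed, the change was 0.55 at 5 µM and -0.17 at 2.5 µM, so that the direction at the lower dose depends on whether the fragments of MTX1P1 are added. The sum was computed after the values were seen. In all, 12 import genes had 36 annotated pseudogenes in the table, and 4 of these were above 0 in any library. TOMM20P4 had 2.86, 6.77 and 8.50 FPKM, and the change of TOMM20 with it included was 0.64 at 2.5 µM and 0.49 at 5 µM. DNAJC19P5 and DNAJC19P9 rested on at most 22 fragments.

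In the intermembrane space, 6 of 7 genes were higher at both doses, against 27.9% of all genes and 41.9% of those with a mean of at least 5 FPKM. With the rescaling that leaves out mitochondrial and small RNA genes, 3 of the 7 were, against 16.4% of all genes, namely TIMM9, TIMM10 and TIMM13, while CHCHD4, TIMM8A and TIMM8B had 0.11, -0.07 and -0.08 at 5 µM. CHCHD4, the oxidoreductase that traps cysteine-rich precursors by forming disulfide bonds, had 9.12 FPKM in DMSO, 20.4 at 2.5 µM and 12.8 at 5 µM, changes of 1.16 and 0.49. It was highest at the lower dose, and the difference of 5 from 2.5 µM was -0.67 with a spread of 0.29. GFER, the sulfhydryl oxidase that recharges it, had 7.24, 25.6 and 29.9 FPKM, changes of 1.81 and 2.03, while AIFM1, which binds CHCHD4 in the intermembrane space, had 16.9, 15.9 and 13.6 FPKM, changes of -0.09 and -0.31.
TIMM9 (ENSG00000100575) and TIMM10 form the chaperone that carries hydrophobic carrier proteins across the intermembrane space. TIMM9 had 13.0, 30.7 and 39.0 FPKM, from about 295, 885 and 1327 fragments, changes of 1.23 and 1.58 with a spread of 0.27. TIMM10 had 22.3, 46.1 and 43.0 FPKM, changes of 1.04 and 0.94. TIMM9 was highest at 5 µM, and TIMM10 was nearly level between the doses.
TIMM8A and TIMM13 form a second chaperone of the same design, and TIMM8B is the close relative of TIMM8A. TIMM13 had 29.6, 48.5 and 46.5 FPKM, changes of 0.71 and 0.65. TIMM8B had 30.8, 41.1 and 37.8 FPKM, changes of 0.42 and 0.30. TIMM8A had 2.46, 3.68 and 3.04 FPKM, changes of 0.56 and 0.30, and its interval at 5 µM, -0.02 to 0.64, included 0, so that a difference at that dose was not detectable at this depth.
TIMM10B (ENSG00000132286), a small TIM that stays with the TIM22 complex, was the exception. It had 5.81, 4.25 and 4.35 FPKM from about 284, 263 and 318 fragments, changes of -0.44 and -0.41 with a spread of 0.44. Its exons share 13.2% of their length with a same-strand gene (ENSG00000283977). Summed over the 6 small TIM genes, FPKM was 104 in DMSO and 174 at both doses.

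The TIM22 complex inserts carriers into the inner membrane. TIMM22, the channel, had 3.11 FPKM in DMSO, 4.59 at 2.5 µM and 5.78 at 5 µM, changes of 0.55 and 0.87. TIMM29, which ties the complex to TOM, had 16.9, 18.9 and 22.0 FPKM, changes of 0.16 and 0.38. AGK, a lipid kinase that is also a subunit of this complex, had 2.95, 2.38 and 1.87 FPKM, changes of -0.30 and -0.63. As deposited, TIMM22 and TIMM29 were higher at 5 µM and AGK was lower, but TIMM29 was at -0.0029 after rescaling without mitochondrial and small RNA genes and at -0.04 with the length trend removed.

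The TIM23 complex takes presequence proteins across the inner membrane, and its genes summed to 109 FPKM in DMSO, 203 at 2.5 µM and 229 at 5 µM. TIMM23 (ENSG00000265354), the channel-forming subunit, had 45.3, 94.0 and 103 FPKM, changes of 1.05 and 1.18 with a spread of 0.21. TIMM23B, a recent copy of it, had 4.74, 8.51 and 7.04 FPKM, changes of 0.83 and 0.56. Reads of near-identical copies may have been split between them, and 29.9% of the exon length of TIMM23B is shared with the readthrough gene TIMM23B-AGAP6.
TIMM17A and TIMM17B are alternative subunits that line the translocation path. TIMM17A had 16.1, 32.5 and 30.7 FPKM, changes of 1.01 and 0.93. TIMM17B had 29.2, 52.8 and 73.2 FPKM, changes of 0.85 and 1.32, so that the share of TIMM17A in the pair went from 35.5% in DMSO to 38.1% at 2.5 µM and 29.5% at 5 µM.
The subunits that receive and hand over precursors differed less from DMSO. TIMM50, the receptor that meets the presequence as it leaves TOM, had 8.14, 9.78 and 9.17 FPKM, changes of 0.26 and 0.17. TIMM21, which links the complex to TOM and to the respiratory chain, had 5.01, 5.35 and 6.62 FPKM, changes of 0.09 and 0.40. ROMO1, a small partner of TIM23, had 74.4, 113 and 106 FPKM, changes of 0.60 and 0.51.

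The genes of the PAM motor differed among themselves. TIMM44 (ENSG00000104980), the scaffold that tethers the matrix HSP70 to the channel, had 11.3 FPKM in DMSO, 31.3 at 2.5 µM and 34.5 at 5 µM, from about 843, 2958 and 3848 fragments, changes of 1.46 and 1.60 with a spread of 0.26. The matrix HSP70 itself, HSPA9, had 56.9, 109 and 108 FPKM, changes of 0.94 and 0.93. GRPEL2 (ENSG00000164284), a nucleotide exchange factor for HSPA9, had 11.1, 29.8 and 25.4 FPKM, changes of 1.41 and 1.18. GRPEL1, the other exchange factor, had 6.13, 8.45 and 8.10 FPKM, changes of 0.46 and 0.40, and its share in the pair went from 35.5% in DMSO to 22.1% at 2.5 µM and 24.2% at 5 µM.
In the values as deposited, the J-domain pair that regulates the motor was not higher in this way. DNAJC19, which stimulates HSPA9, had 11.8, 10.9 and 10.1 FPKM, changes of -0.11 and -0.21, both within 0.25. After rescaling without mitochondrial and small RNA genes its changes were -0.40 and -0.59. PAM16, which holds DNAJC19 in place, had 3.13, 1.54 and 3.52 FPKM from about 120, 75 and 202 fragments, changes of -0.97 and 0.17, and was low in the 2.5 µM library only. Its change at 5 µM was 0.80 with the length trend removed and -0.20 after rescaling without mitochondrial and small RNA genes. PAM16 shares 22.4% of its exon length with the readthrough gene CORO7-PAM16. DNAJC15, a relative of DNAJC19, was listed at 0 in all libraries.

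The steps that follow, processing in the matrix and insertion into the inner membrane, had the smallest median changes of the groups at both doses in the values as deposited, an order that differed in some of the other settings. PMPCA, the subunit of MPP that recognises presequences, had 7.04, 8.75 and 9.18 FPKM, changes of 0.31 and 0.38. PMPCB, the catalytic subunit, had 11.7, 13.5 and 15.3 FPKM, changes of 0.21 and 0.39. The share of PMPCA in the pair stayed between 37.5% and 39.3%.
OXA1L, which inserts proteins into the inner membrane from the matrix side, had 19.5, 26.8 and 27.9 FPKM, changes of 0.46 and 0.52. TIMMDC1, which is related to the TIM17 and TIM23 family and helps to assemble respiratory complex I, had 21.2, 16.2 and 21.7 FPKM, changes of -0.39 and 0.03. As deposited, TIMMDC1 was lower in the 2.5 µM library only, but after rescaling without mitochondrial and small RNA genes its changes were -0.68 and -0.34.

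By role, the median change at 5 µM in the values as deposited was 1.17 for the 3 SAM genes, 0.76 for 7 TOM genes (0.63 without TOMM34), 0.74 for 6 TIM23 genes, 0.62 for the pair of TIM22 genes, 0.49 for the 7 genes of the intermembrane space, 0.40 for 5 motor genes, 0.38 for MPP and 0.28 for insertion and assembly. At 2.5 µM the order differed, with 0.84 for TIM23, 0.71 for the intermembrane space, 0.63 for 8 TOM genes (0.62 without TOMM20L, which had to be higher at this dose to pass the filter), 0.56 for SAM, 0.46 for the motor, 0.35 for TIM22, 0.26 for MPP and 0.03 for insertion and assembly. Within the TOM group the changes at 5 µM ran from -0.53 to 1.95 and within the motor from -0.21 to 1.60, ranges that cover the medians of all groups. Neither the order nor all directions held in other settings. At 5 µM, rescaling without mitochondrial and small RNA genes gave 0.11 for the intermembrane space, 0.02 for the motor, 0.0080 for MPP and -0.10 for insertion and assembly. Removal of the length trend gave 0.80 for the motor, the highest of the groups, and 0.09 for the intermembrane space. The 0.80 is the value of a single low gene, PAM16, with 0.17 as deposited and a transcript of 533 bases. At that length the trend of genes of every type was below 0, unlike the median of protein-coding genes under 1 kb.

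Among paralogs, the channel gene and its rare copy moved apart. The ratio of TOMM40 to TOMM40L was 4.34 in DMSO, 10.5 at 2.5 µM and 11.0 at 5 µM. That of TIMM10 to TIMM10B was 3.84, 10.9 and 9.90. That of TIMM23 to TIMM23B was 9.56, 11.0 and 14.6. For TOMM40 with TOMM40L and for TIMM10 with TIMM10B, the more abundant gene was higher and the other lower in each JG231 library, whereas the share of TIMM8A in the pair with TIMM8B moved little, from 7.40% to 8.21% and 7.45%.

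The doses were also compared with each other, which does not use the DMSO library. Of 35 import genes, 13 were higher by over 0.25 at 5 than at 2.5 µM, against 26.8% of 14197 genes, and 4 were lower, against 30.1%, with a median of 0.07 for import genes and -0.02 for all genes. With each library rescaled to a common sum of FPKM, the split turned to 4 higher and 13 lower, with a median of -0.11, and that of all genes to 16.9% higher and 45.2% lower, with a median of -0.20. A difference of over 1 was reached upward by PAM16 alone, against 7.47% of all genes, and downward by TOMM20L alone, against 8.09%, both low genes. TOMM20L, which is also among the 4 lower, passed the filter here only through its value at 2.5 µM and therefore had to come out lower. Of the 24 genes higher at both doses, 12 differed by at most 0.25 between doses, 9 were higher at 5 µM and 3 were lower, in the values as deposited. The shares of all genes, 26.8% higher and 30.1% lower, are not limited to genes higher at both doses, for which no share was computed. This split too depends on the scaling. MTX1, SAMM50, MTX2, TOMM22, TOMM40 and TIMM17B were among the 9 as deposited, and CHCHD4 showed the largest difference among the 3. With a common sum, changes at 2.5 and 5 µM were 0.61 and 0.81 for SAMM50, 0.87 and 1.04 for MTX2, and 0.67 and 0.88 for TOMM22. The doses then differed by less than 0.25 in these genes.

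The import genes were well expressed. Their median over the genes above 0 was 11.3 FPKM in DMSO, 17.9 at 2.5 µM and 21.7 at 5 µM, compared with 4.72, 4.86 and 5.20 for protein-coding genes, and their sum was 519, 847 and 889 FPKM. TOMM20 and TIMM23 ranked first and second in every library. TIMM17B moved from rank 5 in DMSO to rank 3, TOMM7 from 23 to 14 at 2.5 µM and 11 at 5 µM, and TIMMDC1 from 7 to 20 and 18. Because the values divide by merged exon length, levels of genes with long rare exons are lowered. The merged exons were 1.38 times as long as the canonical transcript in the median of the 34 genes, but 3.99 times in TOMM7, 4.31 in PMPCB and 5.43 in PMPCA, so that the order of levels between genes is approximate, while changes of a gene between libraries are not affected.

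**Figure D3:**
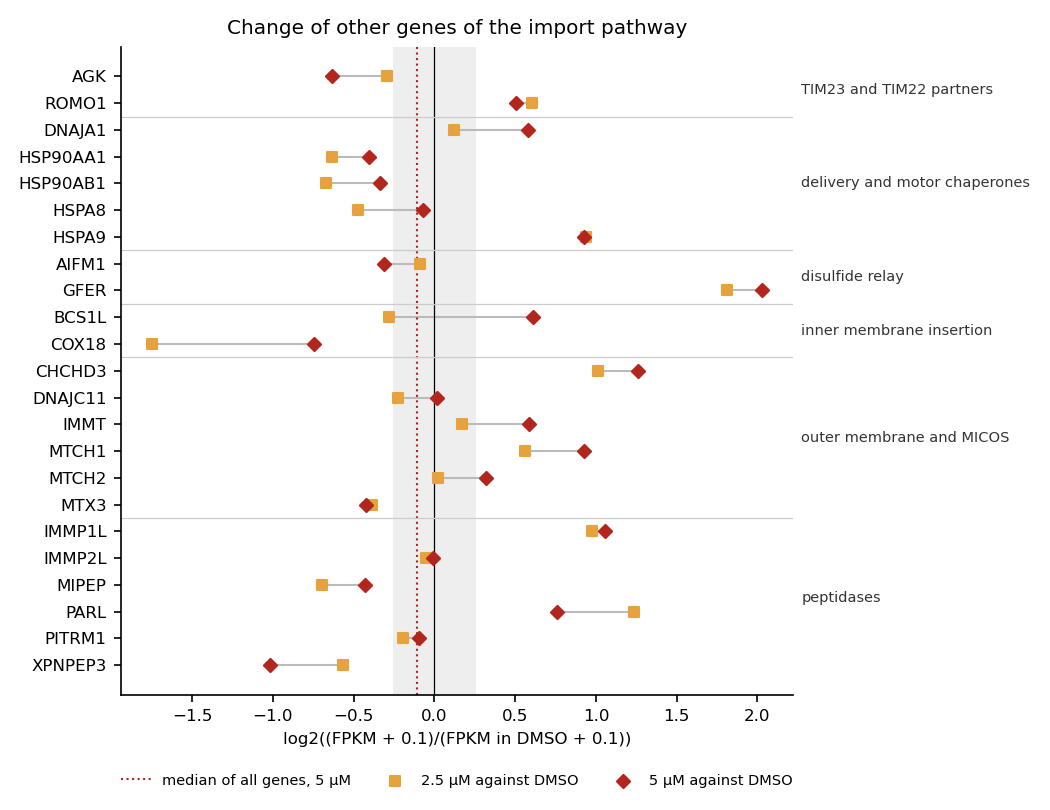
Changes of 23 other genes of the import pathway that passed the filter, grouped by role, as log2 change against DMSO with squares for 2.5 µM and diamonds for 5 µM JG231. The grey band marks changes within 0.25 and the dotted line the median of all genes at 5 µM. GFER lies farthest right and COX18 at 2.5 µM farthest left.

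Other genes that act in import were taken from a list of 24 partners, peptidases, chaperones and organisers, of which 23 passed the filter. They were spread over both directions, with 11 higher and 8 lower at 5 µM, a median of 0.02, and 7 higher and 9 lower at 2.5 µM, a median of -0.09. These are 47.8% and 34.8% of the 23 at 5 µM, against 36.5% and 45.1% of all genes, and 30.4% and 39.1% at 2.5 µM, against 36.4% and 43.4%. Over 1, 3 (13.0%) were higher and 1 (4.35%) was lower at each dose, against 14.7% and 24.3% of all genes at 5 µM and 12.9% and 21.7% at 2.5 µM. Among the chaperones that deliver precursors from the cytosol, HSPA8, the constitutive cytosolic HSP70, had 189 FPKM in DMSO, 136 at 2.5 µM and 180 at 5 µM, changes of -0.47 and -0.07, in contrast to the matrix form HSPA9 described above. DNAJA1, a J-domain cochaperone of cytosolic HSP70 named after its values were seen, had 94.2, 103 and 141 FPKM, changes of 0.12 and 0.58.
Of the peptidases, IMMP1L, a subunit of the inner membrane peptidase, had the largest change at 5 µM, with 2.33, 4.68 and 4.94 FPKM, changes of 0.98 and 1.06, and its partner IMMP2L had the smallest at that dose, with 1.59, 1.53 and 1.57 FPKM, changes of -0.05 and -0.01. Of the outer membrane and cristae-organising (MICOS) genes, CHCHD3, a MICOS subunit imported through the disulfide relay, had 7.43, 15.1 and 17.9 FPKM, changes of 1.01 and 1.26, and DNAJC11, a J-domain protein associated with MICOS, had 7.47, 6.37 and 7.56 FPKM, changes of -0.23 and 0.02.
Both genes for insertion into the inner membrane differed between doses. COX18, which inserts a part of a cytochrome oxidase subunit, had 2.67, 0.725 and 1.55 FPKM, changes of -1.75 and -0.74, and BCS1L, which places the Rieske protein in complex III, had 7.80, 6.41 and 12.0 FPKM, changes of -0.28 and 0.61.

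Transcript length moved with these results. The import genes have short transcripts, with a median of 1805.5 bases against 3276.5 for protein-coding genes past the filter at 5 µM, and among protein-coding genes those with shorter transcripts had the higher medians. Protein-coding genes under 1 kb had a median change of 0.61 at 5 µM, those of 1 to 2 kb 0.37 and those over 2 kb -0.14. In the same classes the import genes had 0.94 (5 genes), 0.85 (14 genes) and 0.40 (15 genes), and at 2.5 µM 0.85 (5 genes, 0.95 over 6 with TOMM20L) against 0.42, 0.76 against 0.27 and 0.31 against -0.06. In each class at both doses the median of the import genes was the higher. Over genes of every type there was no such order, with medians at 5 µM of -0.42 under 1 kb, 0.27 from 1 to 2 kb and -0.17 over 2 kb, and at 2.5 µM of -0.47, 0.16 and -0.09.
Across the 34 import genes the change at 5 µM had a Pearson correlation of -0.39 and a Spearman correlation of -0.33 with log10 transcript length, and -0.36 for Pearson without the 2 genes farthest in length. At 2.5 µM they were -0.20 and -0.31 across 34 genes, and -0.32 for Pearson without the 2 farthest, when TOMM20L is left out, which passed the filter only through its high value there, and -0.35, -0.36 and -0.48 across 35 genes with it. The genes come from the same libraries and are not independent. With the length trend of all genes subtracted and the median of the changes before subtraction added back, the medians of the import genes were 0.43 at 5 µM and 0.39 at 2.5 µM, and the changes at 5 µM of TIMM8A and TIMM29 turned to -0.13 and -0.04. The part of length in single changes was not tested.

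**Figure D4:**
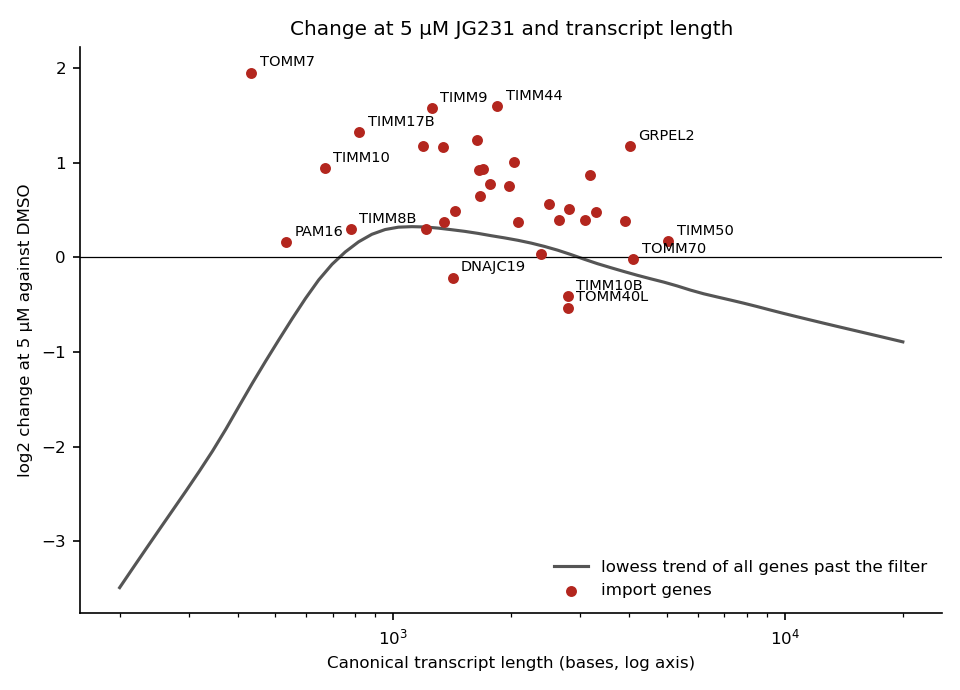
Change at 5 µM against canonical transcript length, on a log axis, for the import genes past the filter (points), with the lowess trend of all genes past the filter (line). Of the 34 points, 29 lie above the line and 5 below it, namely TOMM40L, DNAJC19, TIMM10B, TIMMDC1 and TIMM8A. The share of all genes above the line was not computed. The line covers genes of every type, whose median under 1 kb was -0.42, while that of protein-coding genes was 0.61.

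The share of the library taken by mitochondrial and small RNA genes also differed between the libraries. It was 40.5% of FPKM in DMSO, 24.6% at 2.5 µM and 29.2% at 5 µM. With each library rescaled to a common sum without these genes, the median of all genes was -0.53 at 5 µM and -0.40 at 2.5 µM, and that of the import genes was 0.14 and 0.27. The split then was 16 higher and 6 lower of 35 import genes at 5 µM, against 22.9% and 60.1% of all genes. At 2.5 µM it was 19 higher and 6 lower of 36, against 24.6% and 56.2%. TOMM5 is among the lower at each dose and TOMM20L among the higher at 2.5 µM. Each of them passed the filter only through the library where it was high. The median of the import genes lay above that of all genes by 0.42 to 0.88 at 5 µM and by 0.41 to 0.79 at 2.5 µM over the settings tried. Rescaling and centring shift every gene alike, so that they leave this distance nearly fixed by construction. Over the settings in which a gene had a value, 10 at most, and both doses, 14 of the 34 import genes with a mean of at least 1 FPKM stayed above 0.25, against 18.9% of 13472 genes, 22 stayed above 0, against 27.5%, and TOMM40L, TIMM10B and DNAJC19 stayed below 0, against 34.9%. TIMM22, among the 14, and TOMM40L and TIMM10B had no value with a mean of at least 5 FPKM. Summing with pseudogenes is not among the 10, and MTX1, among the 22, was at -0.17 at 2.5 µM with MTX1P1 included. TIMM44 ranged from 1.17 to 1.71, TIMM23 from 0.75 to 1.29 and TOMM7 from 1.37 to 3.19, the highest value being that with the length trend removed. Near the 434 bases of TOMM7, the trend of genes of every type at 5 µM was -1.33, whereas protein-coding genes under 1 kb had a median of 0.61.

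**Figure D5:**
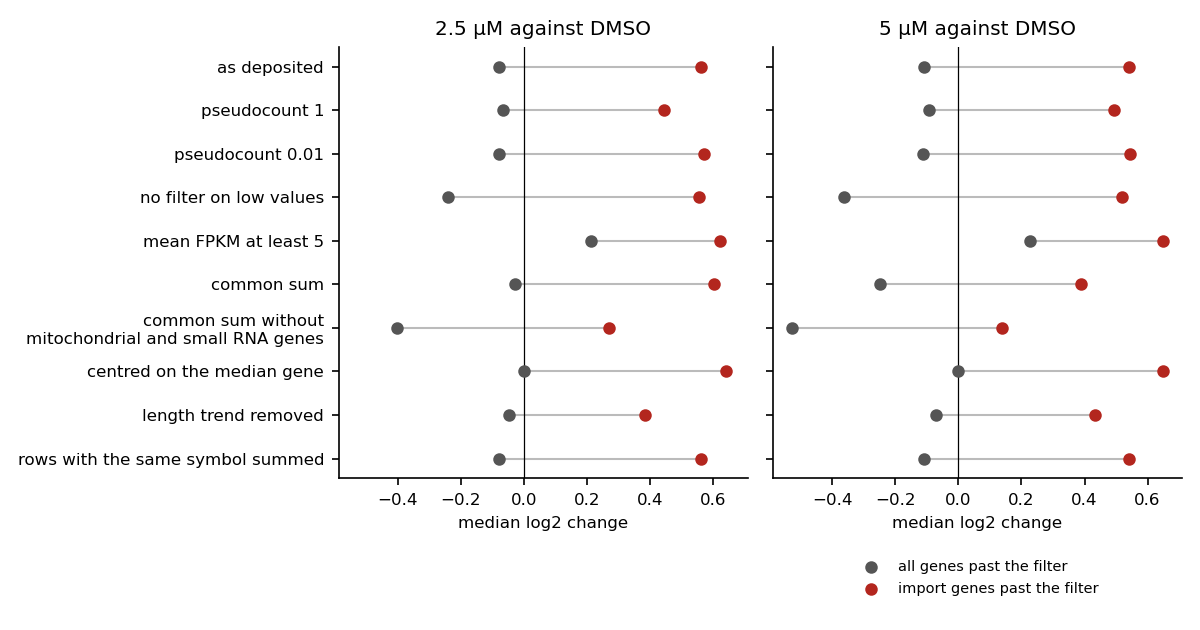
Median log2 change of the import genes and of all genes past the filter, for each dose against DMSO, under 10 ways of processing the values. The median of the import genes lies right of that of all genes in every setting, a distance that rescaling and centring leave nearly fixed by construction, and nearest to 0 after rescaling without mitochondrial and small RNA genes.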

How the data were processed

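RNA-seq was analysed for 3 libraries of H660 cells, 1 each with DMSO, 2.5 µM JG231 and 5 µM JG231 for 24 h. The authors deposited gene-level FPKM values in 1 table. The study's methods name HISAT and StringTie, whereas the submitters' processing notes name HISAT2, featureCounts and the builds GRCh38 and hg38, without versions or roles, and the annotation release is not given in the sources used here. Libraries were stranded according to the sample records. The input of RNA differs between the methods and these records.

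Identifiers of 58207 genes were found in GENCODE release 44. FPKM multiplied by merged exon length fell within 0.05 of a whole multiple of the value of 1 fragment for 84.4% to 88.5% of genes with a single transcript, and for 46.9% to 49.2% of genes with several, among genes under 50 fragments. Fragments of a gene were computed from this length, and for 10 import genes from a length within 5% of it at which all libraries gave whole numbers. They are approximate for the others. Of the import genes, 33 had at least 100 fragments in every library. The fewest were 75 (PAM16 at 2.5 µM) among those with a mean of at least 1 FPKM.

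Changes were log2 ratios of FPKM with a pseudocount of 0.1 and a filter after the study's methods, applied as over 1 FPKM in either compared library. No count model and no test was run, since FPKM values are not counts and no condition has a replicate. Import genes and lists were chosen with earlier results of these data known. Every import gene is given, in full where the mean FPKM was at least 1. Of the 24 other genes, those with the largest and smallest absolute change at 5 µM in each role and HSPA9 are named by rule. DNAJC15 is named from its paralog pair, and the remaining genes are named outside the rule, with their values known. Start regions are from RefSeq. The length trend was fitted by lowess with a fraction of 0.3. Alternatives were pseudocounts of 1 and 0.01, no filter or a mean of at least 5 FPKM, a threshold of 1, common sums, centring, removal of the length trend and summing of rows with the same symbol. Summing with pseudogenes was chosen after seeing the data. The fold calculation was tested on simulated data. The analysis ran in Python 3.11.15 with pandas 2.3.3, numpy 2.4.6, statsmodels 0.14.6 and scipy 1.17.1, and the plots in matplotlib 3.10.9.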

Additional observations from a re-analysis of the deposited data

Results flagged for a closer look

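BCS1L, the assembly factor of complex III, had changes of opposite sign at the 2 doses, 0.61 at 5 µM and -0.28 at 2.5 µM. The difference between the doses was not tested, since each had 1 library.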

How the results depend on the processing

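No paired analysis was possible because each condition had 1 library, and for the same reason no library could be left out. Of 280 values of single import genes under rescaling, centring, removal of the length trend and summing with pseudogenes, 19 changed sign, and the other settings cannot change a sign. With a threshold of 1, 9 import genes were higher and 0 lower at each dose, 1 was higher and 1 lower at 5 against 2.5 µM, and of the other import genes 3 were higher and 1 lower at each dose. With a pseudocount of 1, 2 import genes were lower at 5 than at 2.5 µM (26.8% of all genes). With a mean of at least 5 FPKM, 25 of 29 import genes were higher at 5 µM (48.8% of all genes) and 23 at 2.5 µM (48.0%). In that setting 0 import genes were lower at 5 µM (27.4% of all genes), 1 at 2.5 µM (26.1%) and 2 between doses (20.4%), other import genes lower were 3 and 4, the motor medians were 0.79 at 5 µM and 0.93 at 2.5 µM, and that of the intermembrane space was 1.04 at 2.5 µM. With a common sum of FPKM, 4 import genes were lower at 5 µM (49.98% of all genes), and 4 were higher (16.9%) and 13 lower (45.2%) at 5 against 2.5 µM. TOMM5 is among the 4 lower and TOMM20L among the 13. Each passed the filter only through the library where it was high.

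With a common sum without mitochondrial and small RNA genes, import genes had medians of 0.14 at 5 µM and 0.27 at 2.5 µM, with 16 higher and 6 lower at 5 µM and 10 higher and 7 lower between doses, against 21.0% and 36.7% of all genes. Other import genes had 6 higher and 12 lower at 5 µM, against 22.9% and 60.1% of all genes, and 7 higher and 14 lower at 2.5 µM, against 24.6% and 56.2%. The medians at 5 µM were 0.24 for TOM, 0.11 for the intermembrane space, 0.25 for TIM22, 0.37 for TIM23, 0.021 for the motor, 0.0080 for MPP and -0.10 for insertion and assembly. The TOM value is over 8 genes and is lowered by TOMM5, which passed only through its DMSO value. At 2.5 µM the medians were 0.33 for TOM (9 genes, with TOMM5 and TOMM20L), 0.42 for the intermembrane space, -0.029 for MPP and -0.26 for insertion and assembly. Of values past 0.25 as deposited, TIMM8A (-0.071), TIMM8B (-0.083) and TIMM29 (-0.0029) at 5 µM and TIMM50 (-0.027) at 2.5 µM changed sign, and of values within 0.25, TIMM50 (-0.21), PAM16 (-0.20) and TIMMDC1 (-0.34) at 5 µM and TOMM70 (-0.087), TIMM29 (-0.13), TIMM21 (-0.19) and PMPCB (-0.081) at 2.5 µM. With the length trend removed, the medians at 5 µM were 0.44 for TOM, 0.76 for SAM, 0.090 for the intermembrane space and 0.80 for the motor, the last being the value of PAM16. In that setting 7 import genes were lower between doses (28.6% of all genes), and TIMM8A (-0.13), TIMM29 (-0.036), TIMMDC1 (-0.20) and TOMM70 (0.054) changed sign at 5 µM and TIMM29 (-0.048) at 2.5 µM. The sign of TIMMDC1 at 5 µM also changed with a common sum (-0.096), and that of TOMM70 when centred (0.095). MTX1 summed with MTX1P1 was -0.17 at 2.5 µM. Shifts under rescaling follow from the different totals, and the cause of the others was not tested. Depth limits TOMM5, TOMM20L, PAM16, TOMM40L and TIMM8A most, and the absence of replicates limits every value.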

Other observations

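Among the other import genes, the peptidases outside the inner membrane peptidase also went in both directions, in genes named after their values were seen. PARL, the rhomboid protease of the inner membrane that cleaves PINK1, had 2.96 FPKM in DMSO, 7.12 at 2.5 µM and 5.08 at 5 µM, changes of 1.24 and 0.76. XPNPEP3, an aminopeptidase that trims proteins after MPP has cut them, had 2.30, 1.52 and 1.09 FPKM, changes of -0.56 and -1.02, and MIPEP, which removes a further stretch from some precursors, had 3.72, 2.26 and 2.73 FPKM, changes of -0.69 and -0.43. PITRM1, which degrades the presequences set free, had 5.86, 5.11 and 5.48 FPKM, changes of -0.20 and -0.09, both within 0.25.

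The outer membrane insertases MTCH1 and MTCH2 were measured at 79.0, 117 and 150.2 FPKM and at 31.9, 32.4 and 39.8 FPKM, with changes of 0.56 and 0.93 for MTCH1 and 0.02 and 0.32 for MTCH2. MTX3, a relative of MTX1, had 5.90, 4.49 and 4.37 FPKM, changes of -0.39 and -0.43. The cytosolic HSP90 genes HSP90AA1 and HSP90AB1, whose products dock on TOMM70, had changes of -0.64 and -0.67 at 2.5 µM and of -0.41 and -0.33 at 5 µM.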
